A study of Mus musculus with 5 samples.

Results

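Granzymes and the other proteins of cytotoxic granules were followed through 10 genes in RNA of sorted dermal innate lymphoid cells. They are *Gzma*, *Gzmb*, *Gzmc*, *Gzmd*, *Gzme* and *Gzmk* (granzymes), *Prf1* (perforin), *Nkg7*, *Srgn* (serglycin) and *Ctsw* (cathepsin W), which are 10 of 47729 genes in the count table. The genes were picked by name, with their levels in these same libraries already known. Their difference between the genotypes is therefore given as a description, and no test of it is read as support.

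Skin cells came from female C57BL/6 mice of 8 to 13 weeks that were WT or *Rag1*-/- on the B6 background, and the sorted cells were not stimulated before RNA was taken. *Rag1*-/- mice cannot rearrange antigen receptor genes in any tissue and so lack mature T and B cells. There were 3 WT pools, named 5, 6 and 13 as in the labels, of 10 mice each by the study's methods, and 2 pools labelled *Rag1*-/-, named 2 and 7, of 9 mice each. The sample labels count 30 WT and 16 *Rag1*-/- mice, and the methods 30 and 18. The study's flow cytometry gated its cells as viable CD45+ CD90hi cells negative in the channel shared by CD2 and CD3. Its RNA sequencing methods name sorted cells without a gate of their own. The series describes both genotypes as group 2 innate lymphoid cells (ILC2s), cells that answer tissue alarm signals with type 2 cytokines. The cell type entry of the labels, however, reads type 2 for the WT samples and type 3 for the *Rag1*-/- samples.

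Cytotoxic lymphocytes store granzymes, which are serine proteases, in acidic granules bound to serglycin, a proteoglycan whose sugar chains hold positively charged proteins. On contact with a target cell the granules fuse with the plasma membrane, perforin forms pores, and granzymes enter the target and cleave proteins that lead to its death. Granzyme and perforin expression is best known from NK cells and CD8+ T cells, while mast cells also store their own proteases on serglycin. NKG7 is a membrane protein of these granules that is needed for their release, and cathepsin W is a papain-family cysteine protease found mainly in NK and cytotoxic T cells.

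WT libraries held 32939428 to 39477243 counts, and those of pools 2 and 7 labelled *Rag1*-/- held 8050562 and 38922750. Levels are given as CPM, the counts of a gene scaled to 1000000 counts of its library. The smallest number read here as a signal, 3 counts, was worth 0.0760 to 0.0911 CPM in WT, 0.373 CPM in pool 2 and 0.0771 CPM in pool 7. For *Rag1* itself the WT pools gave 4, 0 and 5 counts and the pools labelled *Rag1*-/- gave 5 and 48, and a count per gene does not show whether the deleted part was covered. A list of 27 leukocyte genes that holds none of the 10 granule genes took 0.109%, 0.260% and 0.264% of all counts in WT pools 5, 6 and 13, and 0.856% and 0.756% in the pools labelled *Rag1*-/-. A list of 24 keratinocyte genes summed to 33406 to 47904 CPM in WT and to 8207 and 19518 CPM in the pools labelled *Rag1*-/-. The 5 pools thus differed in how much leukocyte and keratinocyte RNA they held, and WT pool 5 had the least leukocyte and the most keratinocyte RNA. In bulk pools, fewer cells of a type and less RNA per cell cannot be told apart.

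Of the 10 genes, 6 granzymes lie in 2 clusters of the mouse genome, and their promoters are shown because the counts of these near copies are compared below. *Gzma* (chromosome 13, 113093825 to 113100979) and *Gzmk* (chromosome 13, 113171608 to 113225908) are neighbours, while *Gzmb* (chromosome 14, 56258856 to 56262260), *Gzmc* (56231401 to 56234656), *Gzmd* (56129556 to 56132608) and *Gzme* (56117619 to 56120625) share a stretch of chromosome 14 with the mast cell proteases. *Prf1* (chromosome 10, 61297836 to 61304263) and *Srgn* (chromosome 10, 62493833 to 62527451) lie on 1 chromosome, *Nkg7* is at 43437073 to 43438249 of chromosome 7 and *Ctsw* at 5465240 to 5468498 of chromosome 19. All coordinates are in GRCm38, and the 10 genes are annotated as protein coding in GENCODE M21. The 250 bases before the start site of 4 granzymes and of perforin follow, from RefSeq on GRCm38.p6, 5′ to 3′ along the gene, with the core RUNX motif (TGTGGT on either strand) in capitals.
Gzma, chr13:113100982-113101231, minus strand: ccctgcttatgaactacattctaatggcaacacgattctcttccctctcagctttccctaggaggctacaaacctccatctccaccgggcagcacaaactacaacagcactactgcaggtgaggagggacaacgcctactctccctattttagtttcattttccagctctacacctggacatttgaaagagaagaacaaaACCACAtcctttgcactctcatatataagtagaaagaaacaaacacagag
Gzmb, chr14:56262335-56262584, minus strand: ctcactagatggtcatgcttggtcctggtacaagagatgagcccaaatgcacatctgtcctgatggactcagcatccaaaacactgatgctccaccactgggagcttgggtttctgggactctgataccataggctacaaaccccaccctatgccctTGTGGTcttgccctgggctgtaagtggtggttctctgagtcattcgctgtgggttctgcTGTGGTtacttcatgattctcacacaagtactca
Gzmc, chr14:56234658-56234907, minus strand: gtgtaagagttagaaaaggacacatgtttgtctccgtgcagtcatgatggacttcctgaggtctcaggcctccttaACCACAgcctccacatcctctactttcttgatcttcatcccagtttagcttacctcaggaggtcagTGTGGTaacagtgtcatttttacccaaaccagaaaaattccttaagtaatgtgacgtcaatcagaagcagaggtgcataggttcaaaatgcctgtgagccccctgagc
Gzmd, chr14:56132594-56132843, minus strand: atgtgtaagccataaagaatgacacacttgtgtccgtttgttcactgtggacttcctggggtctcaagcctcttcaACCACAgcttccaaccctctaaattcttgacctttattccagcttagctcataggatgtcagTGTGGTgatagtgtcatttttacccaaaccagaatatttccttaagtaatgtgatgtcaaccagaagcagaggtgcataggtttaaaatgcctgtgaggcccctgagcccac
Prf1, chr10:61297586-61297835, plus strand: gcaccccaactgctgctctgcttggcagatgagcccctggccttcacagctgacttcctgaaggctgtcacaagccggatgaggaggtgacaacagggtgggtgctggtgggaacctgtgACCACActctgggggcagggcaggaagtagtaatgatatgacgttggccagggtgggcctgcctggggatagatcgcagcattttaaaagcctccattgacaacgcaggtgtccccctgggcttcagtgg

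RUNX factors, among them RUNX3, bind this hexamer and are known regulators of cytotoxic genes in lymphocytes. RefSeq start sites were found for 9 of the 10 genes, with 2 for *Srgn*, which gave 10 windows (not *Ctsw*). The RUNX core stood in 8 of these 10 windows, against 14.05% of 32851 promoter windows of the same length across the genome. It began 50 bases before the start of *Gzma*, 93 and 34 before *Gzmb*, 174 and 108 before *Gzmc*, 174 and 112 before *Gzmd*, 175 and 113 before *Gzme*, 130 before *Prf1*, 83 before *Nkg7* and 202 before the second start of *Srgn*. The paired cores of *Gzmc*, *Gzmd* and *Gzme* sit at nearly the same places in promoters that resemble one another. The matches in these windows are therefore not independent, and 8 of 10 cannot be weighed against the genome share as if they were. Aligned bases were 95.6% identical between *Gzmd* and *Gzme*, 84.4% between *Gzmc* and *Gzmd*, and 61.4% between *Gzmb* and *Gzmc*. Other motifs, searched on both strands with N for any base, were rarer. The T-box core GGTGTGA was found in *Gzmk* and *Nkg7* (3.33% of all windows), the AP-1 motif TGANTCA in *Gzmb* (6.75%) and the STAT motif TTCNNNGAA in *Nkg7* (7.02%). No motif here overlapped a RUNX core, and a match of letters is not a measured binding site.

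Granzyme A, which cleaves after lysine or arginine, was counted 6, 15 and 0 times in WT pools 5, 6 and 13, and 51 and 328 times in pools 2 and 7 labelled *Rag1*-/-. This was 0.155, 0.380 and 0 CPM against 6.33 and 8.43 CPM. *Gzma* was thus close to the detection limit in WT and well above it in both other pools, of which the shallower one rested on 51 counts. The means were 0.178 ± 0.191 CPM (SD, n = 3) and 7.38 ± 1.48 CPM (SD, n = 2), a ratio of 41.4 with a small denominator. On the fitted scale of edgeR the log2 difference was 5.34 with a standard error (SE) of 0.91, the widest error among the 7 genes that could be fitted.

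Granzyme B, which cleaves after aspartate and activates caspases in target cells, was at 1.93, 11.2 and 7.95 CPM in WT and at 29.8 and 43.6 CPM in the pools labelled *Rag1*-/-. WT pools 6 and 13 lay far above WT pool 5, although every WT pool stayed below both others. The means of 7.04 ± 4.71 CPM (SD, n = 3) and 36.7 ± 9.77 CPM (SD, n = 2) differed 5.22-fold, and the log2 difference was 2.42 (SE 0.63). Granzyme C, a close relative encoded beside it, was at 2.40, 4.41 and 3.31 CPM in WT and at 40.4 and 27.7 CPM in the pools labelled *Rag1*-/-. Its WT values were tighter than those of *Gzmb*, and its higher value was in pool 2, where *Gzmb* had its lower one. The means were 3.37 ± 1.01 CPM (SD, n = 3) and 34.0 ± 8.98 CPM (SD, n = 2), a 10.1-fold difference with a log2 value of 3.35 (SE 0.33).

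Granzymes D, E and K were at or near the limit of detection everywhere. *Gzmd* had 0 counts in all WT pools and in pool 7, and 8 counts (0.994 CPM) in pool 2. *Gzme* likewise had counts in pool 2 alone, 3 of them. *Gzmk*, the tryptase neighbour of *Gzma*, had 2 counts in pool 7 and 0 elsewhere. None of these 3 genes passed the filter on low counts, so they have no fitted difference, and no ratio is given for them. For 50-base reads the *Gzmd* and *Gzme* values are also uncertain, because 21.9% of the 50-base windows in *Gzmd* transcripts and 20.65% of those in *Gzme* occur in transcripts of other granzymes, and the longest transcripts of the pair are 94.8% identical. For *Gzmc* the shared part was 4.14% of windows, and for *Gzma*, *Gzmb* and *Gzmk* no window was shared. The 8 and 3 counts in pool 2 stood beside 325 counts of *Gzmc*, and their source among these copies cannot be told apart.

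**Figure D1:**
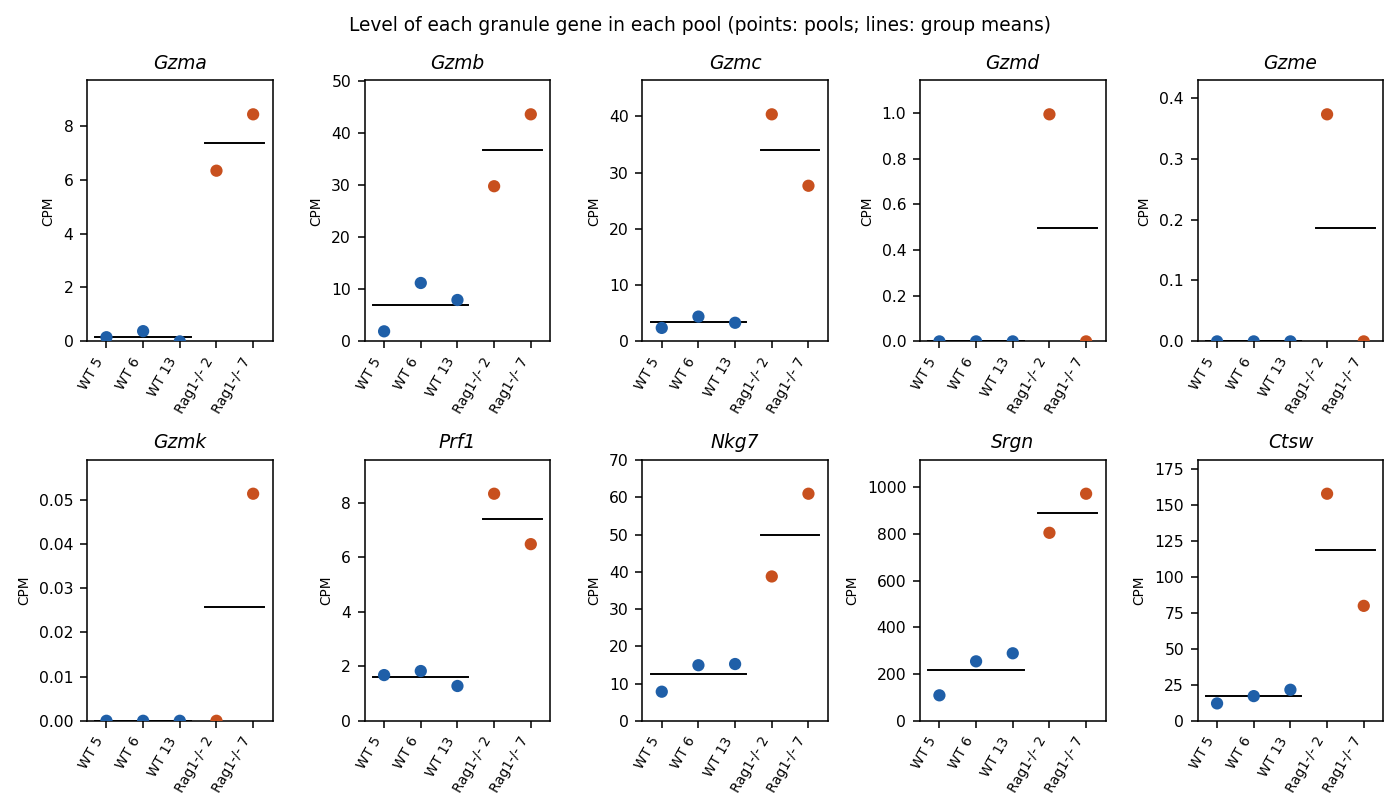
Level of each of the 10 granule genes in each pool in CPM (linear axes that start at 0 and differ in scale by gene), with points for the 3 WT pools (blue) and the 2 pools labelled Rag1-/- (orange) and lines for group means. Gzma, Gzmb, Gzmc, Prf1, Nkg7, Srgn and Ctsw are higher in both orange pools than in every blue one, whereas Gzmd, Gzme and Gzmk have counts in 1 pool each.

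Perforin, the pore former without which granzymes stay outside the target's cytosol, was a low transcript in every pool. *Prf1* was at 1.68, 1.82 and 1.28 CPM in WT, from 65, 72 and 42 counts, and at 8.32 and 6.47 CPM in the pools labelled *Rag1*-/-, from 67 and 252. The 3 WT pools lay close together and all below the other pair. The means were 1.59 ± 0.284 CPM (SD, n = 3) and 7.40 ± 1.31 CPM (SD, n = 2), 4.65-fold apart, with a log2 difference of 2.23 (SE 0.35).

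Serglycin was by far the most abundant of the 10 transcripts. *Srgn* was at 109, 255 and 289 CPM in WT and at 805 and 972 CPM in the pools labelled *Rag1*-/-, with the lowest value again in WT pool 5. Its means of 218 ± 95.6 CPM (SD, n = 3) and 889 ± 118 CPM (SD, n = 2) were 4.08-fold apart, a log2 difference of 2.07 (SE 0.40). The granule membrane gene *Nkg7* was at 7.81, 14.9 and 15.2 CPM in WT and at 38.8 and 61.0 CPM in the pools labelled *Rag1*-/-. Its order of pools was that of *Srgn*, and its means of 12.7 ± 4.20 CPM (SD, n = 3) and 49.9 ± 15.7 CPM (SD, n = 2) were 3.94-fold apart (log2 difference 2.02, SE 0.35). The cathepsin gene *Ctsw* was at 12.1, 17.2 and 21.6 CPM in WT and at 158 and 80.0 CPM in the pools labelled *Rag1*-/-. Like *Gzmc* it was higher in pool 2 than in pool 7, and its means of 16.9 ± 4.75 CPM (SD, n = 3) and 119 ± 55.2 CPM (SD, n = 2) were 7.02-fold apart (log2 difference 2.83, SE 0.35).

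Counted together, 7 of the 10 genes were higher in both pools labelled *Rag1*-/- than in every WT pool, where 21.9% of the 19011 genes tested had that order. Past an adjusted p-value of 0.05 and a log2 difference above 1 in edgeR's quasi-likelihood test with Benjamini-Hochberg adjustment were 6 of the 10, all fitted ones but *Gzmb*, where 3.57% of the genes tested were past both and higher, and 5.73% past both in either direction. Without any 1 of the WT pools, edgeR called none of the genes tested higher (3521 to 3874 had an unadjusted p-value under 0.05). Since the genes were chosen with this contrast known, nothing is read from these counts or from the test. An exact permutation of 3 against 2 pools, with 10 ways to split them, cannot give a p-value below 0.1 for a single gene.

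Corrected for the transcript length given in the count table, levels can be set beside each other between genes. In WT, *Srgn* led with a mean of 126 CPM per kilobase, followed by *Nkg7* (14.4) and *Ctsw* (13.8), whose ranges overlapped, then *Gzmb* (4.96) and *Gzmc* (3.61), which also overlapped, and then *Prf1* (0.775) and *Gzma* (0.203). In the pools labelled *Rag1*-/-, *Srgn* led again with a mean of 515 CPM per kilobase, ahead of *Ctsw* (96.6) and *Nkg7* (56.6), then *Gzmc* (36.4) and *Gzmb* (25.9), then *Gzma* (8.41) and *Prf1* (3.60). Within each of the pairs *Ctsw* with *Nkg7* and *Gzmc* with *Gzmb*, the order differed between the 2 pools. The last 2 places were exchanged between the groups. *Prf1* was above *Gzma* in all 3 WT pools (0.816, 0.888 and 0.621 against 0.176, 0.433 and 0 CPM per kilobase), and *Gzma* above *Prf1* in both pools labelled *Rag1*-/- (7.22 and 9.60 against 4.05 and 3.15).

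The make-up of the granzyme transcripts was also read as a share of all counts on 10 granzyme genes, the 6 above and *Gzmf*, *Gzmg*, *Gzmn* and *Gzmm*. These totals were 214, 677 and 410 in the WT pools and 628 and 3182 in the pools labelled *Rag1*-/-. *Gzma* made up 2.80% of them in WT pool 5 (95% Wilson interval 1.29 to 5.98), 2.22% in pool 6 (1.35 to 3.62) and 0% in pool 13 (up to 0.928%), and 8.12% (6.23 to 10.5) and 10.3% (9.30 to 11.4) in the pools labelled *Rag1*-/-. The share of *Gzma* was thus larger in both of the latter. The intervals cover counting error only, not the spread between pools, and the gene was chosen with its levels known. No test between the groups is read from them. *Gzmb* and *Gzmc* together made up most of the granzyme counts in every pool, in a ratio that varied within both groups. *Gzmb* had 0.806, 2.55 and 2.40 counts for each count of *Gzmc* in WT, and 0.738 and 1.58 in the pools labelled *Rag1*-/-, so the groups overlapped. WT pool 5 and pool 2, at the low end, were the library with the fewest granzyme counts and the library with the fewest counts in all.

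**Figure D2:**
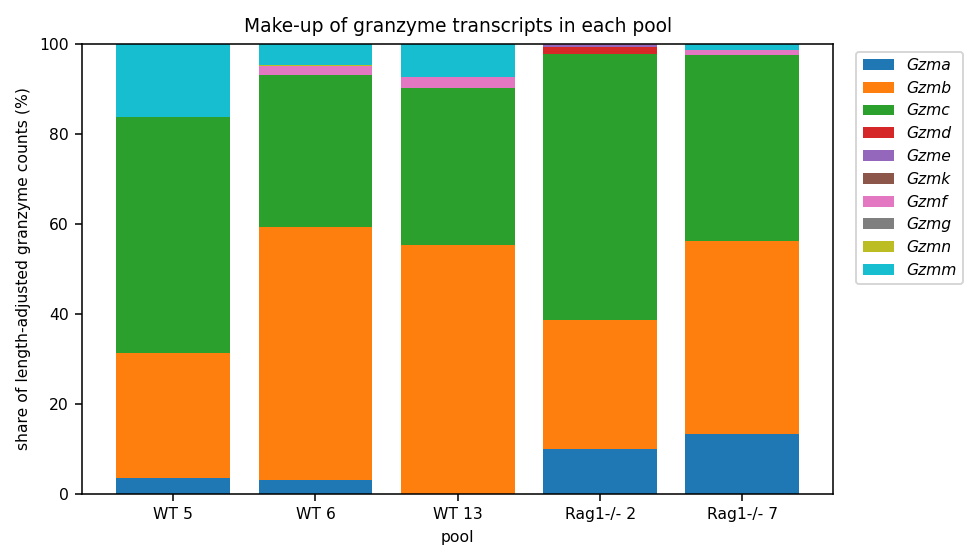
Share of each granzyme in the length-adjusted granzyme counts of each pool (percent, stacked bars from 0 to 100, each bar 1 pool). Gzmb and Gzmc fill most of every bar, Gzma takes 9.88% and 13.4% of the bars of pools 2 and 7 labelled Rag1-/- and at most 3.59% of a WT bar, and Gzmm takes 16.3% of the bar of WT pool 5.

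Granzyme M, a protease of NK cells encoded apart from both clusters, was not higher in both pools labelled *Rag1*-/-. The WT pools gave 40, 33 and 32 counts of *Gzmm* and the pools labelled *Rag1*-/- 0 and 53, a log2 difference of -0.19 (SE 0.95, edgeR adjusted p = 0.930). In the shallow pool 2, a count of 0 was under the floor of 0.373 CPM, against 0.836 to 1.03 CPM in WT. The difference of *Gzmm* was 0.60 without pool 2 and -7.83 without pool 7, the latter set against a single pool with 0 counts and so no measure of size. With libraries scaled on the leukocyte list, as described below, it was -2.42 (edgeR adjusted p = 0.0322). The median of all genes on that scale was -2.17, and 68.4% of them were called lower, so no drop of *Gzmm* itself is read from this value. *Gzmf* was counted 0, 11 and 7 times in WT and 1 and 24 times in the pools labelled *Rag1*-/- (log2 difference 1.40, SE 1.23, adjusted p = 0.524), *Gzmn* had 1 count in WT pool 6, and *Gzmg* had none in any pool.

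Because leukocyte RNA itself made up more of the pools labelled *Rag1*-/-, each granule gene was also set against the counts on the 27 leukocyte genes of its own pool. *Gzma* had 0.142, 0.146 and 0 counts for each 1000 leukocyte-list counts in WT, and 0.740 and 1.11 in the pools labelled *Rag1*-/-. *Gzmc* had 2.20, 1.70 and 1.25 against 4.72 and 3.66. For these 2 genes both pools labelled *Rag1*-/- stayed above every WT pool, as they did for 0.7% of the genes tested on this scale. *Gzmb* had 1.77, 4.32 and 3.01 against 3.48 and 5.77, and *Ctsw* 11.1, 6.61 and 8.18 against 18.5 and 10.6. In both cases the pool with the higher value was above WT and the other was within its range. *Prf1* had 1.54, 0.702 and 0.483 against 0.973 and 0.856, *Nkg7* 7.16, 5.74 and 5.77 against 4.53 and 8.07, and *Srgn* 99.96, 98.0 and 109.5 against 94.1 and 128.6. For *Prf1* both pools labelled *Rag1*-/- fell inside the WT range, while for *Nkg7* and *Srgn* 1 pool was below and the other above all WT pools.

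With libraries scaled on the leukocyte list in edgeR, which moved the median log2 difference of all genes from 0.02 to -2.17, the difference was 3.30 (SE 0.97) for *Gzma* and 1.29 (SE 0.75) for *Gzmc*. It was 0.75 (SE 0.70) for *Ctsw*, 0.61 (SE 0.74) for *Gzmb*, 0.12 (SE 0.72) for *Srgn*, 0.02 (SE 0.85) for *Prf1* and 0.02 (SE 0.72) for *Nkg7*. The last 5 values were about as large as their standard errors or smaller. The leukocyte list and *Srgn* were lowest in the same WT pool and higher in both pools labelled *Rag1*-/-. The part that the amount of leukocyte RNA had in the CPM differences of the 7 genes was not tested.

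**Figure D3:**
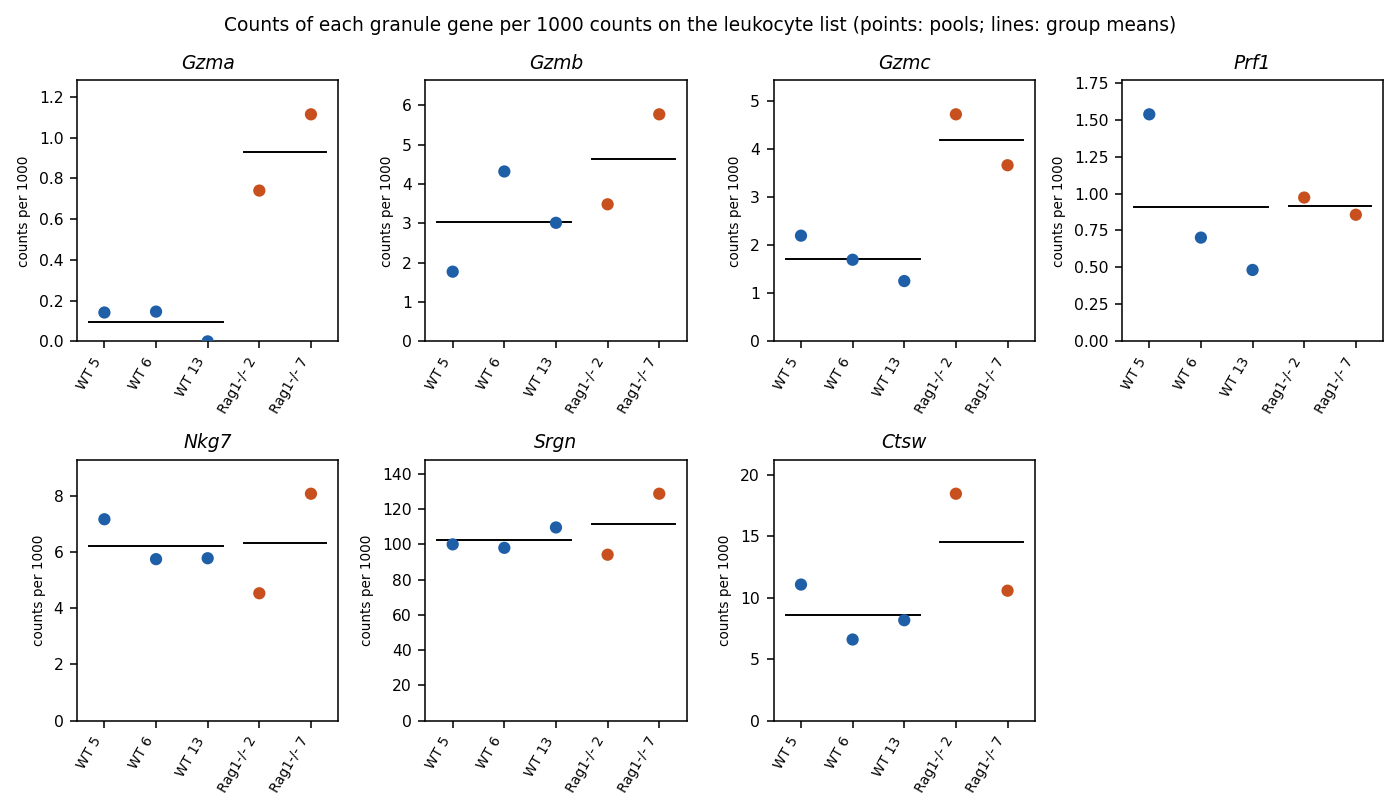
Counts of each of 7 granule genes per 1000 counts on the leukocyte list (linear axes from 0, scaled by gene), with points for WT pools (blue) and pools labelled Rag1-/- (orange) and lines for group means. The orange points of Gzma (0.740 and 1.11) and Gzmc (4.72 and 3.66) lie above all blue points, and for the other 5 genes the groups overlap.

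The wider machinery of granule killing was described with 6 lists of 53 genes, sorted by role and free of the 10 genes above. Of 51 that could be tested, 12 were higher (23.5%) and 1 was lower in the pools labelled *Rag1*-/-, with a median log2 difference of 0.44 beside 0.02 for all genes tested, and 3.57% and 2.16% of all genes were called higher and lower. These calls came from edgeR and did not survive the loss of most libraries. Without any 1 of the WT pools, or without pool 2, none of the lists' genes was called (22 to 28 had an unadjusted p-value under 0.05), and without pool 7 there were 7 higher and 5 lower. Scaled on the leukocyte list, 0 were higher and 28 lower, with 28 at an unadjusted p-value under 0.05, where 0.0842% of all genes were called higher and 68.4% lower, so the calls of higher levels refer to shares of total counts.

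Among 7 activators and inhibitors of granule proteases, 3 were higher and none was lower (median log2 difference 1.56). *Cst7*, which encodes cystatin F, an inhibitor of the cathepsins that activate granzymes, was at 2.29, 7.65 and 6.98 CPM in WT and at 34.5 and 35.3 CPM in the pools labelled *Rag1*-/- (log2 difference 2.66, SE 0.47, adjusted p = 0.0323). *Serpinb9*, whose product inhibits granzyme B, rose by a log2 value of 1.56 (SE 0.34, adjusted p = 0.0451), from 16.2, 18.8 and 32.7 to 52.5 and 76.4 CPM. The serpin gene *Serpinb6b* rose by 1.86 (SE 0.32, adjusted p = 0.0309). *Ctsh*, a cathepsin that can process progranzyme B, and *Serpinb6a* were not called, at log2 differences of -0.59 and 0.33. The 3 genes that passed therefore all encode protease inhibitors, and scaled on the leukocyte list their log2 differences were 0.76, -0.50 and -0.16.

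Of 17 genes for the granule membrane and its secretion, 1 was higher (median log2 difference -0.12). *Unc13d*, which encodes Munc13-4, the factor that primes granules for fusion, was at 19.6, 31.4 and 26.4 CPM in WT and at 98.0 and 69.4 CPM in the pools labelled *Rag1*-/- (log2 difference 1.72, SE 0.26, adjusted p = 0.0306), but at -0.37 when scaled on the leukocyte list. The lysosomal membrane genes *Lamp1* and *Lamp2*, which most cells express, had log2 differences of -0.12 and -0.68 and were not called. Of 11 genes that build the glycan chains carried by serglycin, 3 were higher (median 0.37). These were *Chst11*, a chondroitin sulfotransferase gene (log2 difference 1.38, SE 0.19, adjusted p = 0.0306), *Chsy1*, a chondroitin synthase gene (1.30, SE 0.21, adjusted p = 0.0306), and *B4galt7*, an enzyme of the linker region (1.04, SE 0.21, adjusted p = 0.0400). *B4galt7* fell short of a log2 difference of 1 with DESeq2 (0.998), without a filter (0.967) and with at least 10 counts in each library (0.994). Scaled on the leukocyte list the 3 genes turned to -0.87, -0.85 and -1.09. The first enzyme of the linker, *Xylt1*, and the chondroitin polymerising factor *Chpf* were not called (0.37 and 0.90).

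Death ligands offer a second way to kill, in which a membrane or soluble ligand binds a receptor on the target. Of 4 such genes, 3 were higher (median log2 difference 2.02). *Tnfsf10*, the gene of TRAIL, was at 6.11, 15.05 and 12.96 CPM in WT and at 62.9 and 34.4 CPM in the pools labelled *Rag1*-/- (log2 difference 2.11, SE 0.41, adjusted p = 0.0369), *Lta*, the gene of lymphotoxin, rose by 2.37 (SE 0.52, adjusted p = 0.0462) and *Tnf* by 1.24 (SE 0.26, adjusted p = 0.0428). *Fasl*, the ligand best known from cytotoxic T cells, was scarce, at 0.284, 1.09 and 0.425 CPM against 2.24 and 2.29 CPM, and was not called by edgeR (1.93, SE 0.65, adjusted p = 0.120). With DESeq2 it passed (1.90, adjusted p = 0.0479). On the leukocyte scale *Tnf* was at -0.82, and *Tnfsf10* and *Lta* at 0.13 and 0.48.

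Transcription factors of cytotoxic lymphocytes gave 2 higher and 1 lower of 10 (median log2 difference 1.64), against 6 higher and 1 lower with DESeq2, and 8 had an unadjusted p-value under 0.05. *Runx3*, whose motif is marked in the promoters above, was at 30.5, 60.1 and 48.7 CPM in WT and at 183 and 136 CPM in the pools labelled *Rag1*-/- (log2 difference 1.80, SE 0.30, adjusted p = 0.0309). *Nfil3*, which is required for NK cell and innate lymphoid development, rose by 1.09 (SE 0.20, adjusted p = 0.0332), and *Prdm1*, the gene of Blimp-1, fell by 1.23 (SE 0.28, adjusted p = 0.0481). On the leukocyte scale, which moves all genes by a median of -2.19, *Runx3* and *Nfil3* were at -0.24 and -1.04 and *Prdm1* at -3.50. *Id2*, a factor of all innate lymphoid cells, missed the threshold in edgeR (1.80, SE 0.41, adjusted p = 0.0503) but passed it with DESeq2 (adjusted p = 0.000701), without a filter, with at least 10 counts in each library and after thinning. *Bhlhe40* was not called (0.47). The T-box genes *Tbx21* and *Eomes*, also named after their values were seen, drive granzyme and perforin expression in NK cells. Both had a positive log2 difference but at most 2.61 and 2.11 CPM in any pool. Neither was called by edgeR (adjusted p = 0.0999 and 0.0576).

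**Figure D4:**
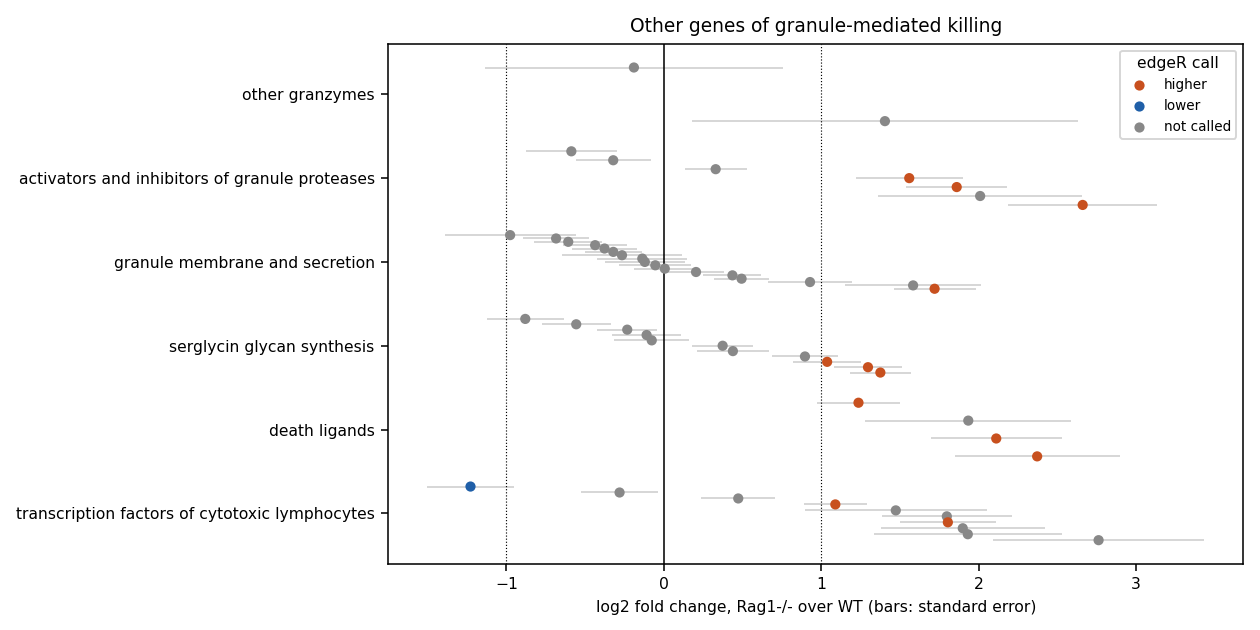
Log2 fold change between the pools labelled Rag1-/- and the WT pools for 51 other genes of killing (points, with bars of 1 standard error), by role, with dotted lines at -1 and 1 and colours for edgeR calls (orange higher, blue lower, grey not called). Called genes are 3 of 7 activators and inhibitors, 1 of 17 membrane and secretion genes, 3 of 11 glycan genes, 3 of 4 death ligands and 3 of 10 transcription factors, of which 1, Prdm1, is lower.

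Markers of the cells that could contribute granule genes were summed in each pool. The NK and ILC1 list of 18 genes summed to 157, 451 and 351 CPM in WT and to 1342 and 1370 CPM in the pools labelled *Rag1*-/-. All 15 genes tested had a positive log2 difference (median 2.05). The edgeR test called 4 of the 15 higher and none lower, where 3.57% of all genes tested were called higher. DESeq2 called 9 higher and none lower. Scaled on the leukocyte list, the median was 0.06 beside -2.17 for all genes. On that scale 2 genes of the list were called higher and none lower, where 0.0842% of all genes were called higher. Most of that sum was *Il2rb*, the receptor chain shared by interleukins 2 and 15 (122, 358 and 252 CPM against 1112 and 1131), and *Klrk1*, the gene of NKG2D, both also expressed outside NK cells. The NK receptor genes *Ncr1* and *Klrb1c*, picked from this list after their values were seen, were low in every pool. *Ncr1* had 6, 17 and 3 counts in WT and 8 and 35 in the pools labelled *Rag1*-/-, and *Klrb1c*, the gene of NK1.1, had 0, 13 and 1 against 9 and 44. Both were thus at most 1.13 CPM, and like *Gzma* they were higher in pools 2 and 7 than in WT, though neither was called (adjusted p = 0.155 and 0.151).

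The T cell list of 18 genes summed to 186 to 274 CPM in WT and to 725 and 614 CPM in the pools labelled *Rag1*-/-. Of 16 genes tested, 15 had a positive log2 difference (median 1.23). The edgeR test called 5 of the 16 higher and none lower, where 3.57% of all genes tested were called higher. Scaled on the leukocyte list, the median was -0.80 beside -2.17 for all genes, with 0 called higher and 2 lower. The most abundant genes of the list were *Bcl11b*, a factor that ILC2s also use, and *Trbc1*, a receptor constant gene. Their log2 differences were 0.73 and 2.16, and neither was called. The genes *Cd8a* and *Cd8b1* were named after their values were seen and do not stand for the list as a whole. *Cd8a* had 31, 0 and 2 counts in WT and 0 and 1 in the pools labelled *Rag1*-/-, and *Cd8b1* had 2 counts in pool 7 alone, so the co-receptor of cytotoxic T cells was near 0 in all pools but WT pool 5. The γδ T cell list of 10 genes summed to 53.0, 88.2 and 68.7 CPM in WT and to 313 and 218 CPM in the pools labelled *Rag1*-/-, and *Cd163l1* alone gave 231 and 157 of the latter. The list gave 1 higher and 1 lower of 8 tested (median log2 difference -0.17), the higher one being *Cd163l1*, a scavenger receptor gene. The mast cell list, of interest since mast cells hold serglycin, summed to 225 to 344 CPM in WT and to 658 and 485 CPM in the pools labelled *Rag1*-/-, but its median log2 difference was -0.60 and only 4 of its 14 genes had a positive one. It had 0 of 14 genes called by edgeR in either direction (5 had an unadjusted p-value under 0.05, and DESeq2 called 2 higher and 3 lower). Most of that sum was *Kit*, which progenitors and innate lymphoid cells also express. The parts of NK cells, ILC1s, T cells and mast cells in the granule gene levels were not tested.

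The cell type entries of the labels were set beside both innate lymphoid programmes. The ILC2 list of 16 genes summed to 1297, 2460 and 2109 CPM in WT and to 6251 and 4093 CPM in the pools labelled *Rag1*-/-, and its defining factor *Gata3* was at 199, 319 and 229 CPM against 558 and 369. The ILC3 list of 11 genes summed to 411, 417 and 423 CPM against 782 and 657. The ILC2 sum was thus larger than the ILC3 sum in all 5 pools, although the lists differ in their genes and number. The 2 most abundant genes of the ILC3 list, *Ahr* and *Il1r1*, had log2 differences of -1.18 and -0.31. Of its 11 genes, 9 had a positive difference, so the sum does not follow the list as a whole. The sums therefore do not settle the label. The median log2 difference was 1.96 for the ILC2 list and 2.54 for the ILC3 list. Scaled on the leukocyte list it was 0.01 for the ILC2 list, with no gene called higher or lower. For the ILC3 list it was 0.62, with 3 genes called higher and 2 lower. On that scale 0.0842% of all genes were called higher and 68.4% lower. Of these lists 6 ILC2 and 7 ILC3 genes were higher by edgeR and 1 ILC3 gene, *Ahr*, was lower. Over all genes tested, 3.57% were called higher and 2.16% lower. Leukocyte genes were higher in 18 of 27 cases and keratinocyte genes lower in 8 of 24, while 0 of 17 myeloid and 0 of 11 endothelial genes were called (1 and 2 had an unadjusted p-value under 0.05, and DESeq2 called 1 myeloid gene higher and 1 endothelial gene lower). Over all 10 marker lists 41 genes were higher and 10 lower, against none without any 1 WT pool or without pool 2 (92 to 99 had an unadjusted p-value under 0.05), and 41 and 38 without pool 7.

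**Figure D5:**
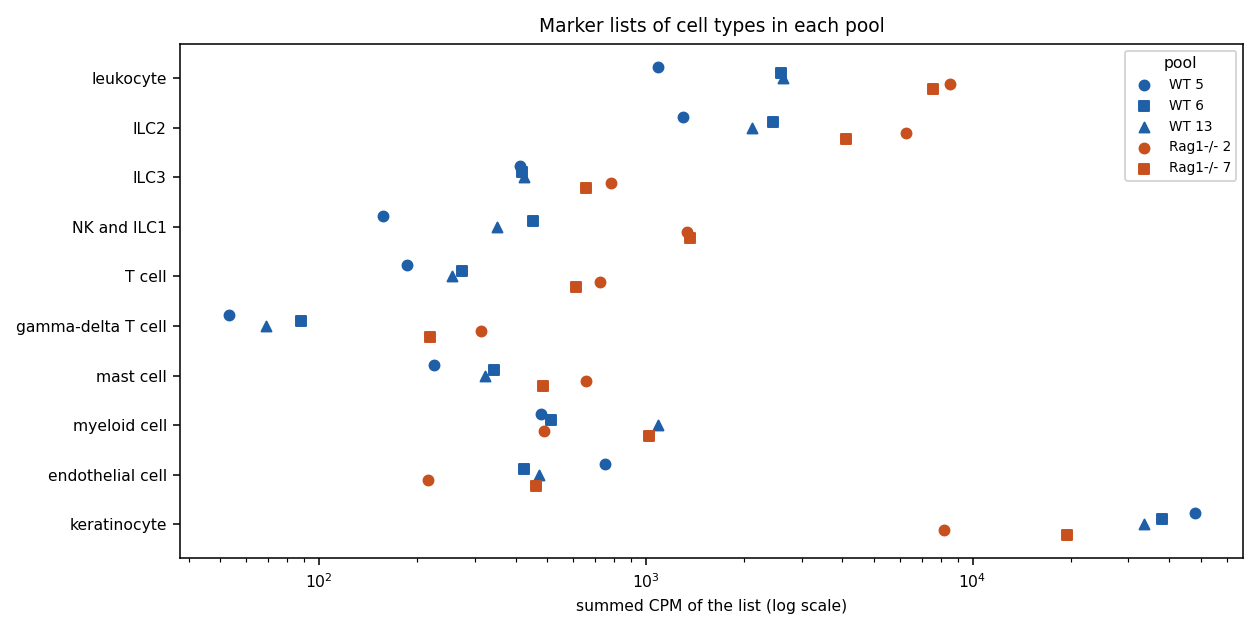
Summed CPM (log axis) of 10 lists of cell type markers in each pool, with blue symbols for WT pools and orange symbols for pools labelled Rag1-/-. Leukocyte, innate lymphoid, NK, T cell and mast cell sums are higher in both orange pools than in every blue one, the keratinocyte sum is lower (8207 and 19518 against 33406 to 47904 CPM), and the myeloid sums overlap.

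Finally, the genes whose profile over the 5 libraries lay closest to a granule gene were sought among 19010 others, by the root mean square distance of mean-centred log2 CPM, a description over 5 points that share the genotype difference. For *Gzmb* they were *Gm20628* (0.0755), *Gm29243* (0.116) and *Kbtbd11* (0.243), where the median gene was at 1.63. For *Nkg7* they were *Serpinb1a* (0.0399), the gene of another inhibitor of serine proteases, *Ptpn18* (0.0744), a phosphatase gene, and *Crip1* (0.0775), with a median of 1.14. For *Srgn* they were *Gpsm3* (0.0696), *Cnr2* (0.0838) and *1700010I14Rik* (0.0929), with a median of 1.23. In WT pool 5, *1700010I14Rik* was at 0.0516 CPM, under the floor of 3 counts, and *Gm29243* at 0.0773 CPM, at that floor. The prior count of 2 added before the logarithm damps such low values, so the small distances of both genes are uncertain. *Serpinb1a* was at 71.5, 138 and 135 CPM in WT and at 373 and 554 CPM in the pools labelled *Rag1*-/-, nearly parallel to *Nkg7* in each pool.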

How the data were processed

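Polyadenylated RNA of sorted skin cells was sequenced by the authors as single-end 50-base reads. Per the labels, reads were handled with bcl2fastq 2.17.1.14 and FastQC 0.11.5, aligned with STAR 2.5 and counted on genes with featureCounts 1.5.0-p1, and the authors used DESeq2 1.8.2. The labels name GRCm38 and GRCm39, the methods GRCm38, and the 2 sources differ in the annotation release. The deposited counts per gene, not normalized, were the input of the results. The deposited normalized signal, which by its values is counts divided by a size factor by the authors and rounded, entered 1 alternative only.

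Of the genes in the table, 19011 passed filterByExpr and were fitted with edgeR 4.0.16 (R 4.3.3), using TMM factors and the quasi-likelihood test. A gene was called where its Benjamini-Hochberg adjusted p-value lay under 0.05 and its log2 fold change was beyond 1 in either direction. P-values measure the spread between pools of mice. Standard errors came from the fold change and the F statistic. CPM is the count scaled to a library total of 1000000. Wilson intervals (95%) and the floor of 3 counts cover counting error only. Where a symbol was repeated, the entry with most counts was taken. Transcript lengths came from the count table, transcript sequences from GENCODE M21, promoters and motifs from RefSeq on GRCm38.p6. The alternatives were each pool left out, DESeq2 1.42.0, limma 3.58.1 on log2 of the deposited signal plus 1, other scalings (RLE factors, total counts, the leukocyte list), other filters (none, or a minimum of 10 counts in each library) and thinning to 8050562 counts. The fit was tested on simulated data. The members and all lists were chosen with earlier results of these data known. The genes followed through the alternatives are the 10 granule genes, the other granzymes, the called genes and the 2 most abundant uncalled ones per length of each pathway list, the 2 most abundant of each marker list, and the 3 nearest genes of *Gzmb*, *Nkg7* and *Srgn*. Of these, *Ptprc*, *Laptm5*, *Rora*, *Trdv4*, *Cd207*, *Lyz2*, *Pecam1*, *Vwf*, *Krt10* and *Krt14* are not described above. Further genes were named after their values were seen. *Tbx21*, *Eomes*, *Ncr1*, *Klrb1c*, *Gata3*, *Cd8a*, *Cd8b1*, *Cma1*, *Mcpt4*, *Ctsg* and *Esm1* belong to this last kind.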

Additional observations from a re-analysis of the deposited data

How the results depend on the processing

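No paired analysis was possible because the groups share no replicate numbers. Under the alternatives that could fit them, apart from the leukocyte scale, the 7 fitted granule genes were higher in the pools labelled *Rag1*-/- (*Gzma* did not pass the minimum of 10 counts). On the leukocyte scale *Prf1* and *Nkg7* were at 0.02. All 7 log2 differences moved by more than the spread between pools with the scaling on the leukocyte list, as did that of *Ctsw* without pool 2 (2.31 in place of 2.83). The genes called in all were 679 higher and 411 lower, against 1197 and 1257 with DESeq2, 1157 and 1488 without a filter, 641 lower with at least 10 counts in every library, and 16 and 13009 scaled on the leukocyte list. Leaving out 1 pool gave 0 to 814 higher and 0 to 1595 lower (3521 to 5200 at an unadjusted p-value under 0.05 where edgeR called 0). Of the other granule genes, 12 higher and 1 lower became 0 and 28 on the leukocyte scale, 2 were lower without a filter, and 0 to 7 were higher and 0 to 5 lower with a pool left out. Of the marker genes, 41 higher and 10 lower became 67 and 24 with DESeq2, 69 and 27 without a filter, 6 and 67 on the leukocyte scale, and 0 to 41 and 0 to 38 with a pool left out. Of the 10 granule genes, 7 lay above every WT pool, against 2 on the leukocyte scale. The leukocyte scale lowers all genes by a median of 2.19 by its construction. Of 53 fitted genes followed through the alternatives beside the granule genes, 25 went from a positive to a negative value on it. For 15 of them at least 1 of the 2 values was called: *Serpinb9* (-0.50), *Serpinb6b* (-0.16), *Serpinb6a* (-1.85), *Unc13d* (-0.37), *B4galt7* (-1.09), *Chsy1* (-0.85), *Chst11* (-0.87), *Xylt1* (-1.84), *Tnf* (-0.82), *Runx3* (-0.24), *Nfil3* (-1.04), *Bhlhe40* (-1.72), *Thy1* (-0.24), *Hdc* (-2.14) and *Ptpn18* (-0.066). The cause of the other changes was not tested, although DESeq2 and the fit without a filter tested 29909 genes in place of 19011. Depth limits *Gzma* in WT, *Gzmd*, *Gzme* and *Gzmk* throughout, and all low genes in pool 2.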

Other observations

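The granzyme cluster on chromosome 14 continues into the mast cell proteases, which were read as neighbours of *Gzmb* and *Gzmc*, a choice made after the data were seen. Between *Cma1* and *Gzmb* (GRCm38, chromosome 14, 55941453 to 56262260) lie 19 annotated genes, of which 12 had more than 3 counts in some library and 6 were tested. *Mcpt4*, a chymase gene of connective tissue mast cells, was at 35.7, 38.8 and 43.2 CPM in WT and at 13.04 and 32.4 CPM in the pools labelled *Rag1*-/- (log2 difference -0.72, edgeR adjusted p = 0.276). *Cma1*, another mast cell chymase gene, was at 14.7, 17.2 and 18.2 CPM against 6.09 and 20.7 CPM (-0.23, adjusted p = 0.805), and *Ctsg*, the gene of cathepsin G, at 0.876, 0.988 and 0.880 against 0.497 and 0.951 CPM (-0.22, adjusted p = 0.849). For *Mcpt4* both pools labelled *Rag1*-/- lay below every WT pool, and for *Cma1* and *Ctsg* the groups overlapped. On chromosome 13, 4 annotated genes span *Gzma* to *Gzmk* (113093825 to 113225908), among them *Esm1*, an endothelial gene that overlaps the annotated span of *Gzmk*, with 39, 25 and 34 counts in WT and 7 and 7 in the pools labelled *Rag1*-/- (-0.98, adjusted p = 0.491).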
